A study of Homo sapiens with 4 samples.

Results

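The olfactory receptor genes of chromosome 11 were examined for macroH2A1 in IMR90 cells, a strain of human fetal lung fibroblasts. The 161 members are the protein-coding genes of chromosome 11 in the GENCODE annotation of hg19 whose symbol is OR followed by a number, a single letter and a number. They were taken from 20090 protein-coding genes, and they made up 42.4% of the 380 genes with such a symbol on all chromosomes. Members with neighbours within 500 kb were joined into 10 clusters, numbered here along the chromosome from the end of the short arm. The rule itself uses symbols and positions and no measured value.

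Olfactory receptors are G protein-coupled receptors of the sensory neurons of the nose, and each such neuron is known to express a single receptor allele while the others are kept silent. Class I receptors, the OR51, OR52 and OR56 families, sit together on the short arm around the beta-like globin genes, and class II receptors fill the remaining clusters. MacroH2A1 is an H2A variant with a large additional macro domain. It is best known from silent chromatin such as the inactive X chromosome.

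The study compared macroH2A1 ChIP with input in untreated IMR90 cultures grown in serum-containing medium and fixed with formaldehyde. There were 2 ChIP replicates, described as biological in the series' design text, and 2 inputs, which enter only as the denominator of the deposited log2 ratio. No second condition or cell type exists in the series, so no test between groups of samples was possible, and the error given is the SD over the 2 replicates. The label of lung fibroblast could not be checked against marker genes, because ChIP-seq measures no expression.

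Each deposited file divides the genome into segments and gives 1 log2 ratio of ChIP over input per segment. A gene's value here is the mean of that ratio over its assayed bases. All 161 members passed the minimum of 50% assayed bases, 158 were assayed over their whole length, and the lowest was at 93.5%. The files carry no read numbers, so the depth and the counting error of these ratios are unknown.

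Neighbouring receptors mostly share a segment, and this limits how many separate measurements the members hold. The start sites of the 161 members fell in 39 segments of replicate 1 and 28 segments of replicate 2. In both replicates the fullest segment held 42 members. Across members there were 54 distinct pairs of replicate values. Counts of genes below are therefore counts of annotation inside segments and not of independent measurements.

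Most members lay slightly below the ChIP-to-input balance, in a narrow band. The median log2 ratio was -0.44 in replicate 1 and -0.54 in replicate 2, and -0.52 ± 0.07 (SD of the replicate medians, n = 2) for the mean of both. In both replicates 122 members (75.8%) lay between -1 and 0, a range that held 20.9% of all 19511 measured coding genes. This range was not among the results planned in advance, so its shares are a description of where the members fell. A single member, OR52I1, lay below -1 in both replicates, where 42.3% of all measured genes lay. Below 0 in both replicates lay 127 members (78.9%), against 69.7% of all measured genes. At the upper end, 19 members (11.8%) were above 0 in both replicates, against 22.8% of all measured genes. Outside the cluster whose 42 members share a segment, the band from -1 to 0 held 80 of 119 members (67.2%). Counting each pair of values once it held 31 of 54 pairs (57.4%).

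**Figure D1:**
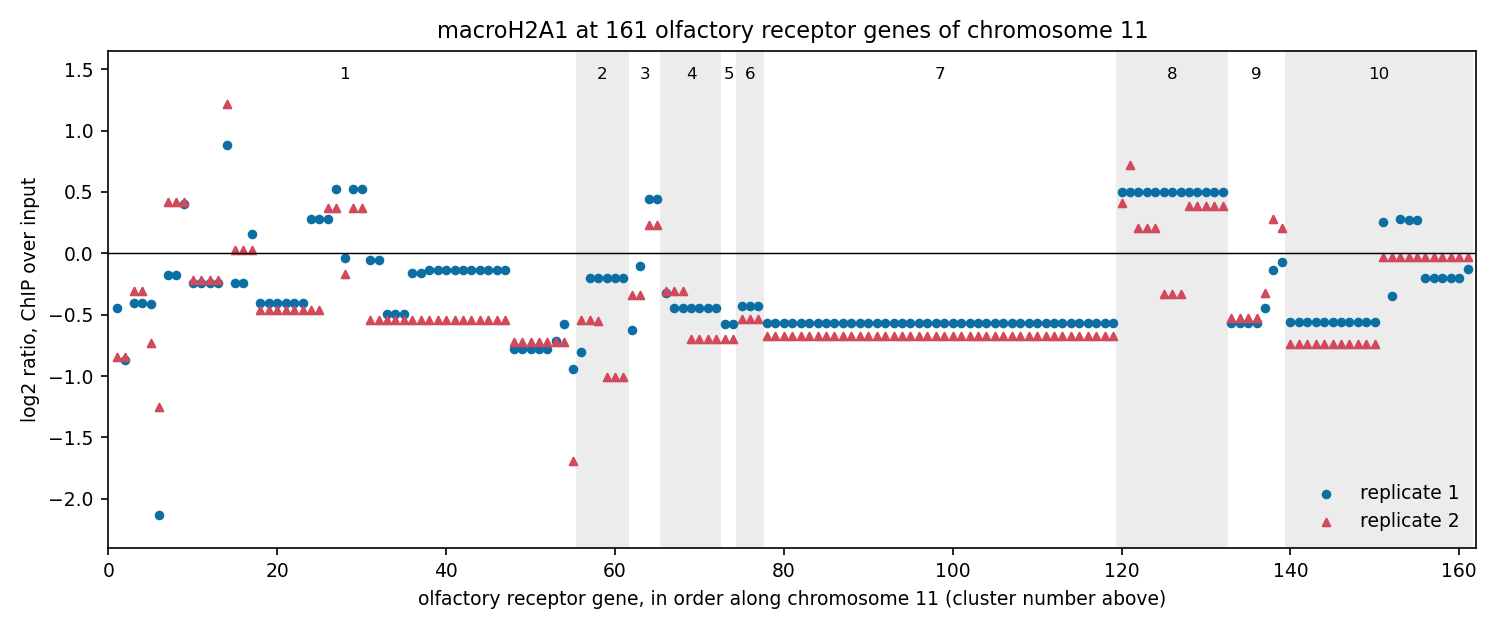
Log2 ratio of ChIP over input (vertical axis) for the 161 members in order along chromosome 11 (horizontal axis), with circles for replicate 1, triangles for replicate 2, and shading that alternates between clusters 1 to 10. Runs of equal values are members in a shared segment; the 42 members of cluster 7 sit at -0.57 and -0.68, and the 13 of cluster 8 at 0.50 in replicate 1.

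Enriched segments were those with a log2 ratio over 0 and a deposited −log10 p of 2 or more. Some member segments below 0 also passed this p cut, and only their sign kept them from being counted as enriched. The replicate 1 segment at the start of OR8G1, at -0.35, had a −log10 p of 5.38. The replicate 2 segment from OR52K1 to OR52I2, at -0.31, had 4.03. An uncovered gene therefore need not lie in a segment with a weak deposited p. How far a gene was covered is the percent of its assayed bases that enriched segments of both replicates held. By that measure 18 members (11.2%) had 50% or more of their length covered, against 19.2% of all measured genes. All 18 were covered to 100%. Another 141 members (87.6%) were at 0, against 69.5% of all measured genes. The remaining members, OR51B5 and OR51E1, were at 39.0% and 0.671%. Members had a median length of 1.07 kb, against 28.1 kb over all measured genes. The effect of gene length on these shares was not tested. The mean covered share of the members was 11.4%, and it was 17.2% and 13.5% in replicates 1 and 2 alone. Over all measured genes it was 19.9%, and 23.4% and 25.5% in the single replicates. The 18 fell in 3 clusters: 6 in cluster 1, 2 in cluster 3 and 10 in cluster 8.

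Cluster 1 (chr11:4388493-6221416, hg19; 1833 kb) holds all 55 class I receptors and was the most varied. Its members ran from -1.69 to 1.05 in mean log2 ratio, and their median was -0.24 in replicate 1 and -0.54 in replicate 2. In both replicates 42 members (76.4%) were below 0 and 7 (12.7%) above, against 69.7% and 22.8% of all measured genes. Another 6 had opposite signs. The 55 start sites fell in 21 segments of replicate 1 and 11 of replicate 2. All 7 members above 0 in both replicates belonged to the OR51 family (7 of 22), and none of 27 OR52 and 6 OR56 genes did. These are not 7 separate measurements: OR51V1, OR51B4, OR51B2 and OR51B6 shared a segment in replicate 2. OR51G1, also among the 7, was at 0.15 and 0.03, with a deposited −log10 p of 0.36 in replicate 2.

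OR51T1 (chr11:4903049-4904113) had the highest value of all members, 0.89 in replicate 1 and 1.22 in replicate 2 (1.05 ± 0.23, SD, n = 2). It lay in a short enriched segment of 25.4 kb in replicate 1 and 16.3 kb in replicate 2, with a deposited −log10 p of 18.6 and 11. Its neighbour toward the end of the short arm, OR51S1 (chr11:4869467-4870438), was at -0.24 and -0.22. On the other side OR51A7 was at -0.24 and 0.03. Both replicates therefore placed OR51T1 above each of these neighbours, by more than the spread between replicates of any of the 3 genes.

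OR52I1 (chr11:4615269-4616243) had the lowest value, -2.13 in replicate 1 and -1.25 in replicate 2 (-1.69 ± 0.62). The adjoining OR52I2 was at -0.41 and -0.73 (-0.57 ± 0.23), averaged across a segment boundary. The low segment around OR52I1 was 16.0 kb and 26.8 kb long in the 2 replicates and also held TRIM68, a gene of the tripartite motif family. OR52W1, the last member of cluster 1, was next lowest at -0.95 and -1.69 (-1.32 ± 0.53). That value is an average across a boundary, since in both replicates a segment ends inside OR52W1: the segment at its start was at 0.09 in replicate 1 and -0.72 in replicate 2. Both low members differed between replicates by more than most: the median SD over members was 0.09 and the highest was that of OR52I1.

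To show what lies at start sites with such different values, the 300 bases from 250 before to 50 after the RefSeq start are printed for OR51T1 and its neighbour OR51S1, for OR52I1, for OR4A16, the first member of cluster 7, and for OR6Q1, the highest of cluster 8. The windows lie at chr11:4870389-4870688 (OR51S1, minus strand), chr11:4902880-4903179 (OR51T1, plus strand), chr11:4615019-4615318 (OR52I1, plus strand), chr11:55110427-55110726 (OR4A16, plus strand) and chr11:57798175-57798474 (OR6Q1, plus strand), placed by exact match in GRCh37. Capitals mark TAATTA, the core bound by many homeodomain factors, and TATAAA, the TATA box, on either strand. In all 5 windows the RefSeq start is the first base of a coding ATG. The first 250 bases are thus upstream of that ATG and the last 50 begin with it. A start of transcription further upstream would lie outside the windows. For OR51T1 the GENCODE gene starts at chr11:4903049, inside the window. The later TATAAA and the TAATTA marked there lie within that annotated gene and not upstream of it.
OR51S1: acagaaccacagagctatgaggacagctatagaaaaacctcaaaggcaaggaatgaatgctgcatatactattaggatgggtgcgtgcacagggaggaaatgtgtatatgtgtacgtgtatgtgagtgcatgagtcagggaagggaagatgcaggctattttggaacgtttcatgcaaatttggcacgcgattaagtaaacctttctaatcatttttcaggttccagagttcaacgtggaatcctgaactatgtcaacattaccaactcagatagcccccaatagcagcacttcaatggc
OR51T1: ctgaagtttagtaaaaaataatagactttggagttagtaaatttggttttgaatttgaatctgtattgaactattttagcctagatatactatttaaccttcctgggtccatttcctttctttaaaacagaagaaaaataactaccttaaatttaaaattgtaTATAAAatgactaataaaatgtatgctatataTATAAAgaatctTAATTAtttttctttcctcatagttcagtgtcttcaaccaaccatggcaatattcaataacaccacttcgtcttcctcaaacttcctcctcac
OR52I1: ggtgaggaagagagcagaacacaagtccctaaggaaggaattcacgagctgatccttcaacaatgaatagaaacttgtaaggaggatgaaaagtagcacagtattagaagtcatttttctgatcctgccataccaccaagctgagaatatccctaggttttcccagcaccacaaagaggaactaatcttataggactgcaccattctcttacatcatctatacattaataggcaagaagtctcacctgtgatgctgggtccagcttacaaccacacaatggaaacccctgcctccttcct
OR4A16: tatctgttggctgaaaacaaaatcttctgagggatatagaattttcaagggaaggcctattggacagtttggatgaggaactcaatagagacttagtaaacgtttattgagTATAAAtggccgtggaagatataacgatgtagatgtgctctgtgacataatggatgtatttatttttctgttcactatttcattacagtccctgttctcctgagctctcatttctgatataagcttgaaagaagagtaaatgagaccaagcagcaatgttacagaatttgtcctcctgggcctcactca
OR6Q1: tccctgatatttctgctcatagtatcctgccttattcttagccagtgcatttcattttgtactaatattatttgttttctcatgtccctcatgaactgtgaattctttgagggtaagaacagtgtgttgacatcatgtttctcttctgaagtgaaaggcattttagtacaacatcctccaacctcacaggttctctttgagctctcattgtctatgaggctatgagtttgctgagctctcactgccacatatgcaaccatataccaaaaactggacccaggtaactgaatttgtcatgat

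CpG, the dinucleotide at which DNA is methylated, is rare in the 5 windows, and least so in that of OR51S1. OR6Q1 has 0 CG in its 300 bases, OR51T1 and OR52I1 have 1 each, OR4A16 has 3 and OR51S1 has 6. Their GC content is 28.0% for OR51T1, 38.0% for OR4A16, 39.3% for OR6Q1, 43.3% for OR51S1 and 43.7% for OR52I1. OR51T1 holds 2 copies of TATAAA and 1 of TAATTA, OR4A16 holds 1 TATAAA, and the other 3 windows hold neither.

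RefSeq windows (table of build GRCh38.p14) were matched by symbol for 125 of the 161 members, and in 60 of these the start was a coding ATG. Such starts were not counted among the windows of all genes. The contrasts that follow may therefore compare sequence at unlike positions. Members' windows had a median GC content of 37.3% (range 24.3% to 57.0%), against 58.3% over 27305 windows of all genes in the table. No CG at all was found in 28.0% of members' windows and in 4.16% of all windows. TATAAA was present in 36.8% of members' windows and 12% of all, and TAATTA in 23.2% and 4.98%. The palindromic core of the Olf1/EBF site was present in 2 of 125 members' windows (1.60%) and in 1.20% of all windows. Motifs were searched on both strands, and AT-rich sequence holds the first pair of motifs more often by composition. Median GC was 40.0% in cluster 1, 33.0% in cluster 7, 39.3% in cluster 8 and 39.7% in cluster 10. Cluster 8, the highest in log2 ratio, thus had a median between those of clusters 10 and 7.

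OR51E2 and OR51E1 encode receptors known outside the nose, in prostate among other tissues, and activated by short-chain fatty acids. OR51E2 (chr11:4701401-4719084) was covered to 100% in both replicates, with log2 ratios of 0.40 and 0.42 (0.41 ± 0.01, SD, n = 2). OR51E1, the next member toward the end of the short arm, was at -0.17 in replicate 1 and 0.42 in replicate 2 (0.12 ± 0.42). In replicate 1 OR51E1 started in a segment of 19.9 kb at -0.18, with values above 0 on either side of that segment. In replicate 2 OR51E1 and OR51E2 shared a segment at 0.42. OR51D1, beside OR51E1, was split in the same way, at -0.18 and 0.42.

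Another covered stretch of cluster 1 surrounds the beta-like globin genes. OR51B4, OR51B2 and OR51B6 shared segments at 0.53 in replicate 1 and 0.37 in replicate 2 (0.45 ± 0.11 each), and OR51V1 was at 0.28 and 0.37 (0.32 ± 0.06). Each of these was covered to 100% in both replicates. HBB and HBD, adult globin genes between OR51V1 and OR51B4, had the same values as OR51V1. OR52A5 and OR52A1, next to OR51V1, were at 0.28 in replicate 1 and -0.47 in replicate 2. OR51B5, whose annotated span of 202 kb runs out of this stretch, was at -0.04 and -0.17 and covered to 39.0%.

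The members in the rest of cluster 1, toward the centromere, were below 0 in both replicates. From OR52P1 to OR52E5, 10 members shared a segment at -0.14 in replicate 1, with a deposited −log10 p of 3.10. In replicate 2 they lay in a segment at -0.54 that held 18 members. OR52D1 was at -0.50 and -0.54. The OR56A genes had equal values, -0.78 and -0.72 (-0.75 ± 0.04). Family medians ran from -0.11 for OR51 to -0.35 for OR52 and -0.75 for OR56.

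Clusters 2 and 3, also on the short arm, hold class II receptors. The 6 members of cluster 2 (chr11:6812967-6943225) were all below 0 in both replicates, and their median was -0.20 in replicate 1 and -0.78 in replicate 2. OR6A2, a receptor for aldehydes known from studies of coriander taste, was at -0.80 and -0.54 (-0.67 ± 0.18). In replicate 1 OR6A2 also crosses a boundary, and the segment at its start was at -0.20. OR10A5 was the highest there at -0.20 and -0.54, and OR2D3 was at -0.20 and -1.01.

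Cluster 3 (chr11:7817521-7963255) was divided in its middle. Its 4 members had a median of 0.17 in replicate 1 and -0.06 in replicate 2, and 0.05 for the mean of both. OR10A6 and OR10A3 shared a value of 0.44 in replicate 1 and 0.23 in replicate 2 (0.33 ± 0.15) and were covered to 100%. The other pair, OR5P2 and OR5P3, was at -0.63 and -0.11 in replicate 1 and at -0.34 in replicate 2. The enriched segment of OR10A3 ended 39.9 kb beyond it in replicate 1 and 41.6 kb beyond it in replicate 2, and it also held NLRP10, an NLR family gene, at the same value.

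**Figure D2:**
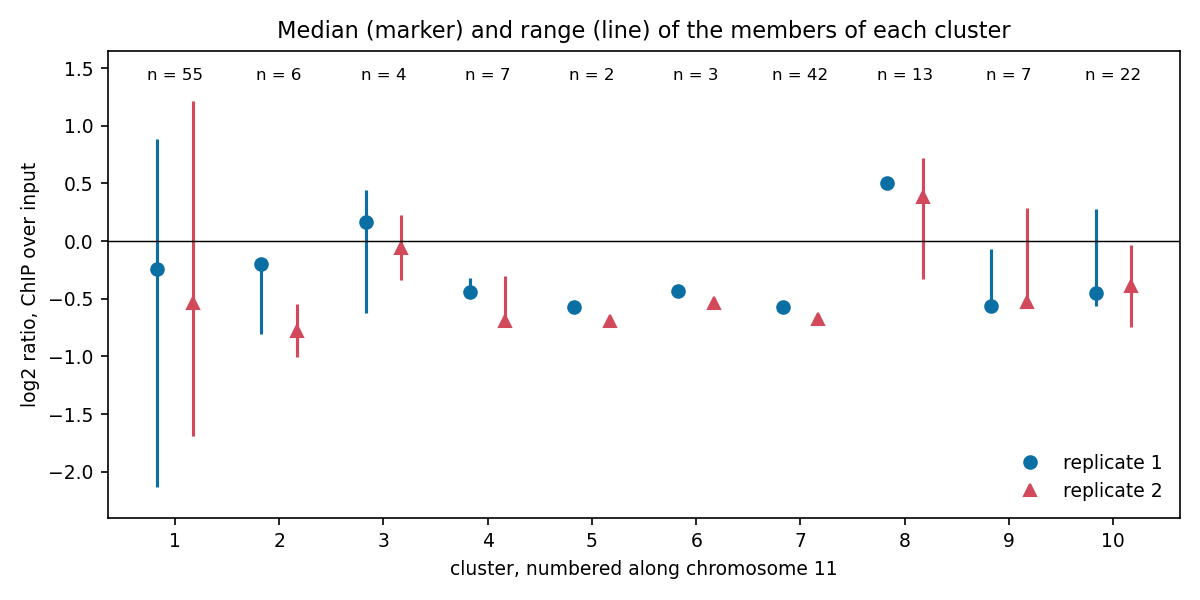
Median (marker) and range (line) of members' log2 ratios in each cluster (horizontal axis), with circles for replicate 1 and triangles for replicate 2; n is the number of members. Cluster 8 is the only cluster with a median above 0 in both replicates (0.50 and 0.38), and clusters 5, 6 and 7 have no visible range because their members share segments.

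Around the centromere most receptors lay in long segments below 0. Clusters 4, 5 and 6 are on the short arm and cluster 7 is on the long arm, across an assembly gap at chr11:51594206-54694205. Cluster 4 (chr11:48238362-48511274, 7 members) had medians of -0.44 and -0.70. Its first members were in shorter segments: OR4B1 started in one of 17.3 kb in replicate 1, and OR4B1, OR4X2 and OR4X1 shared one of 66.8 kb in replicate 2. OR4C13 and OR4C12, the 2 members of cluster 5, were at -0.58 and -0.70, and the 3 of cluster 6 at -0.43 and -0.54. In replicate 2, 6 members of clusters 4 and 5 shared a segment of 2480 kb. No member of clusters 4 to 7 was covered at all.

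Cluster 7 (chr11:55110677-56587992, 1477 kb) is the second largest, with 42 members of the OR4, OR5, OR8 and OR9 families. In each replicate a single segment held every member. That segment spanned chr11:55027481-56777813 at a log2 ratio of -0.57 in replicate 1 (1750 kb) and chr11:54795656-56767508 at -0.68 in replicate 2 (1972 kb). All 42 genes, from OR4A16 to OR5G3, thus had the same value, -0.62 ± 0.08 (SD, n = 2). The segments were the third and the fourth longest of chromosome 11 in the 2 replicates. Their ends on the side away from the centromere were 10.3 kb apart, at 190 and 180 kb past OR5G3. Variation within the 42 genes cannot be read from these files, since a segment carries 1 value.

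Cluster 8 (chr11:57791353-58275578, 484 kb), 1203 kb further along the long arm, had the opposite sign. Its 13 members shared a segment of 649 kb at 0.50 in replicate 1, with a deposited −log10 p of 136.8. Replicate 2 divided the same stretch into 4 segments at 0.72, 0.20, -0.33 and 0.38. In both replicates 10 of 13 members were above 0, and these 10 were covered to 100%. OR6Q1 was highest at 0.50 and 0.72 (0.61 ± 0.15), followed by OR9Q1 at 0.50 and 0.41 (0.45 ± 0.07). OR9Q1 has an annotated span of 158 kb. The 5 OR5B genes, from OR5B17 to OR5B21, were at 0.50 and 0.38 (0.44 ± 0.09).

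OR1S1, OR10Q1 and OR10W1, in the middle of cluster 8, were at 0.50 in replicate 1 and -0.33 in replicate 2. With OR52I1 they had the largest differences between replicates of all members. The dip in replicate 2 was a segment of 62.1 kb, at which replicate 1 made no division. Its deposited −log10 p was 2.93, and that of the adjoining segment at 0.20, counted as enriched, was 2.47. The sign of the ratio alone, and not the deposited p, left the dip uncovered.

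Clusters 7 and 8 differed by far more than the spread between replicates. The whole span of cluster 8, genes and intergenic sequence together, had a log2 ratio of 0.50 in replicate 1 and 0.29 in replicate 2, and 86.9% of it was covered. The span of cluster 7 was at -0.57 and -0.68 with 0 covered. The OR5 genes had a median of -0.62 in cluster 7 (20 genes) and 0.44 in cluster 8 (5 genes), and the OR9 genes -0.62 (2 genes) and 0.35 (3 genes). In cluster 7 every family must have the value of the shared segment, and the 5 OR5 genes of cluster 8 also shared a segment in each replicate. These family medians therefore cannot separate family from cluster.

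The enriched stretch of cluster 8 ended close to its last receptor. The segment holding OR5B21 ended 15.7 kb past that gene in replicate 1 and 13.7 kb past it in replicate 2. LPXN, a paxillin family gene whose annotated span has its nearer edge 18.8 kb past OR5B21, was at -1.12 and -1.57. On the other side the enriched segment reached 149 kb before OR9Q1 in replicate 1 and 25.5 kb in replicate 2. CTNND1, the catenin gene 204 kb away on that side, was at -2.18 and -2.06. The first 100 kb beyond the cluster had a log2 ratio of 0.37 ± 0.19 before OR9Q1 and -1.20 ± 0.24 past OR5B21.

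**Figure D3:**
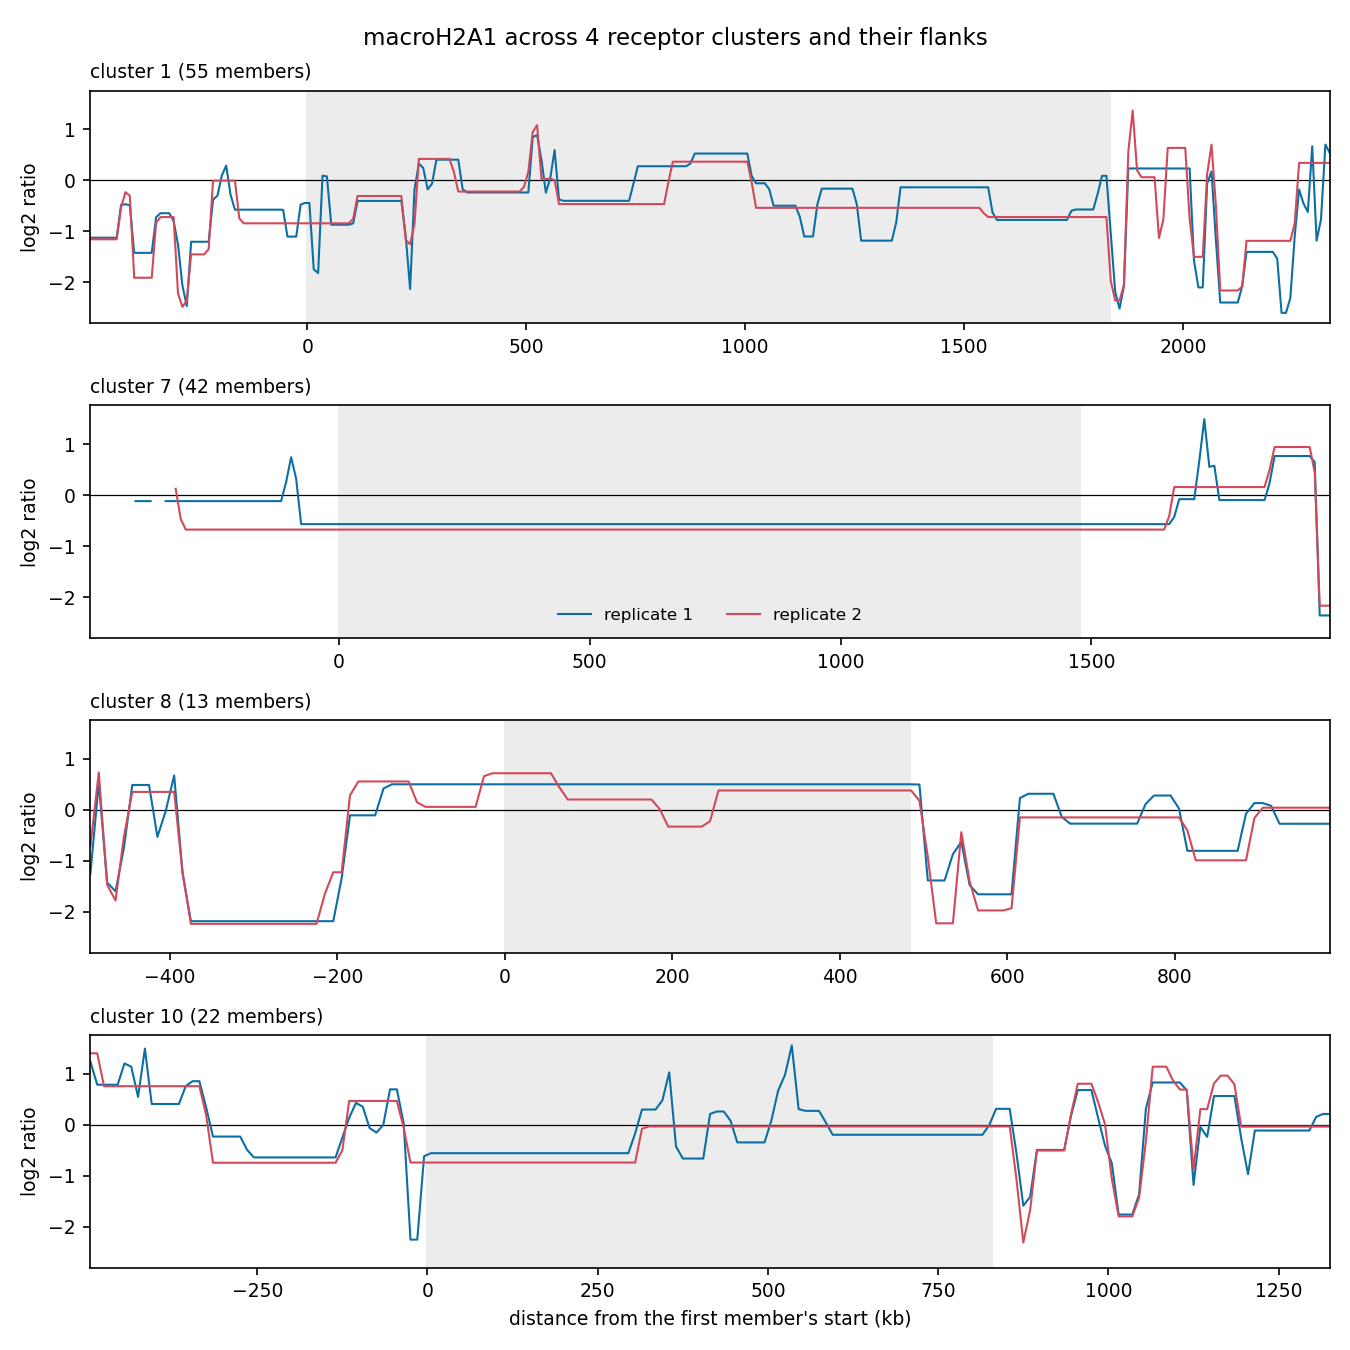
Log2 ratio in bins of 10 kb (vertical axis) against distance from the first member's start in kb (horizontal axis) for clusters 1, 7, 8 and 10 with 500 kb on either side, replicate 1 in blue and replicate 2 in red; grey marks the cluster. Cluster 7 is flat at -0.57 and -0.68, cluster 8 lies mostly above 0 and falls away on both sides (below -2 before it in both replicates). Replicate 1 shows more steps than replicate 2 across clusters 1 and 10 and fewer across cluster 8.

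Cluster 9 (chr11:59184442-59481318) was low in its first members and near 0 in its last. OR5A1, the receptor for the violet odorant beta-ionone, was at -0.56 and -0.53 (-0.55 ± 0.03), as were OR5A2, OR4D6 and OR4D10. OR4D9 was at -0.14 in replicate 1 and 0.28 in replicate 2, and OR10V1 at -0.07 and 0.21. Neither had the same sign in both replicates. OR4D9 was covered to 100% in replicate 2 alone, and OR10V1 in neither. OSBP and PATL1, which are not receptors and lie between OR4D9 and OR10V1, were at -2.39 ± 0.22 and -2.39 ± 0.01.

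Cluster 10 (chr11:123624288-124452838, 22 members) is the most distant, near the end of the long arm. Its first 11 members, from OR6X1 to OR10G7, shared segments at -0.56 in replicate 1 and -0.74 in replicate 2 (-0.65 ± 0.13). OR10G4, a receptor for the smoky odorant guaiacol, is among them. The other 11 members shared a segment at -0.03 in replicate 2. In replicate 1 their start sites fell in 4 segments. OR8G1 was lowest there at -0.35, while OR8D1, a receptor for sotolone, which smells of fenugreek, was at 0.27. In replicate 1 alone 4 of the 22 were above 0, and none was in replicate 2. The ends of the segments past OR8A1, the last member, lay 36.8 and 36.9 kb beyond it in the 2 replicates.

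Between replicates, Pearson's r over the 161 members was 0.80 and Spearman's rho 0.75, lower than the 0.91 and 0.91 over all measured genes. These describe agreement across genes that share segments, and no p is given. Opposite signs were found for 15 members (9.32%), in clusters 1, 8, 9 and 10, against 7.50% of all measured genes. Replicate 1 had 2573 segments on chromosome 11, with a median of 23.4 kb, and replicate 2 had 1374 with a median of 46.0 kb. OR1S1, OR10Q1 and OR10W1 had the shorter segment in replicate 2, and the rest of the 15 had it in replicate 1.

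Segments holding members were long. Their median length was 86.8 kb in replicate 1 and 161 kb in replicate 2. The 4 member segments of at least 500 kb in replicate 1 held 63 members, and the 6 in replicate 2 held 82. Of the 39 member segments in replicate 1, 26 (66.7%) had a log2 ratio between -1 and 0, and of the 28 in replicate 2, 16 (57.1%). Among all segments of chromosome 11 that share was 27.2% and 24.3%. Below -1 lay 2 member segments in each replicate, against 23.4% and 24.3% of all segments of the chromosome. Segments chosen for holding a gene favour longer ones, so these shares are a description.

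The sequence between the receptors had the values of the members in clusters 5, 6 and 7, where a single segment holds both, and not in all others. In cluster 8 it was at 0.50 and 0.23, against member medians of 0.50 and 0.38, and in cluster 1 at -0.33 and -0.40, against -0.24 and -0.54. In cluster 9, which holds OSBP and PATL1, it was lower than the members, at -0.75 and -0.79 against -0.56 and -0.53. In cluster 10 it was higher, at -0.23 and -0.31 against -0.45 and -0.39. The 33 measured coding genes that lie inside the clusters and are not members had a median of -0.62, and 21 of them (63.6%) lay between -1 and 0 in both replicates. Among these are receptors outside the symbol pattern. Of the 14 other genes listed for these intervals 13 were measured: 2 (15.4%) were above 0 in both replicates and 9 (69.2%) below. Over all measured genes these shares were 22.8% and 69.7%. The 2 above 0 were HBB and HBD, which had the same values. MMP26, a matrix metalloproteinase gene that overlaps several OR51 genes, was at -0.12 ± 0.02. TRIM22 and TRIM5, antiviral genes, were at -0.61 ± 0.09 and -0.45 ± 0.15. The annotated span of TRIM5 (chr11:5684425-5959849) holds TRIM22 and the members from OR52P1 to OR52E5, so its value averages over theirs.

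The GC content of a member did not order its log2 ratio (Pearson r = -0.09, Spearman rho = -0.09 over 161 genes, which share segments). Over the 10 cluster spans r was -0.16 and rho -0.25. Span GC content ran from 36.2% in cluster 7 to 41.2% in cluster 9, and cluster 8 was at 37.9%. Both are descriptions with no p.

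Receptors of the same symbol pattern on other chromosomes lay in a similar band. Of 206 measured there, 167 (81.1%) were between -1 and 0 in both replicates and 20 (9.71%) above 0, with medians of -0.64 in replicate 1 and -0.68 in replicate 2. The other 1144 coding genes of chromosome 11 had 21.0% in that band, 43.1% below -1 and 20.8% above 0, with a median of -0.79 ± 0.09. All measured genes had a median of -0.81 ± 0.09. The chromosome 11 receptors thus had a higher median than coding genes in general and a smaller share above 0. Among other chromosomes with at least 10 receptors, the 54 on chromosome 1 had a median of -0.67 and 0 above 0. Of the 26 on chromosome 9, 7 (26.9%) were above 0 in both replicates and 7 had opposite signs. That 26.9% is near the 22.8% of all measured genes. Start sites fell in 6 and 5 segments of the 2 replicates on chromosome 1, and in 10 and 6 on chromosome 9.

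**Figure D4:**
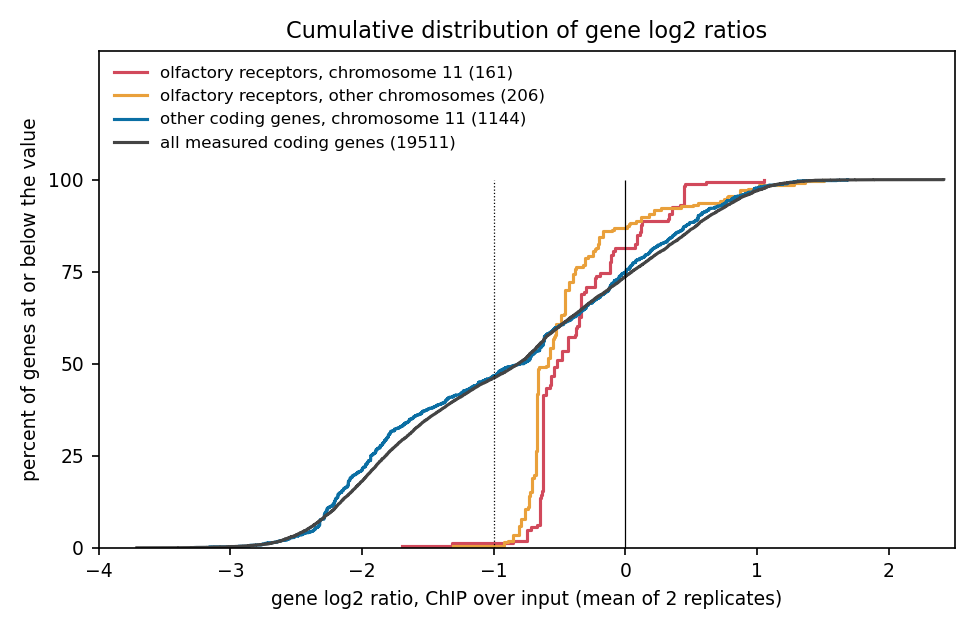
Percent of genes (vertical axis) at or below a log2 ratio, mean of 2 replicates (horizontal axis), for receptors of chromosome 11, receptors elsewhere, other genes of chromosome 11 and all measured genes, with lines at 0 and -1. Both receptor curves rise steeply between -1 and 0, where 75.8% and 81.1% of receptors lie in both replicates, and the other curves extend below -2.

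A further 10 receptor genes of chromosome 11 have subfamilies of 2 letters and fall outside the symbol pattern. The other 9 had mean log2 ratios between -0.72 and -0.55. OR2AT4 (chr11:74792798-74807921), a receptor for a synthetic sandalwood odorant that is known from skin, stands far from every cluster. It was at 1.21 in replicate 1 and 1.34 in replicate 2 (1.28 ± 0.09) and covered to 100%, higher than any member. OR2AT4 was singled out after its value was seen.

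Genes of olfactory signalling and receptor choice, on any chromosome, were spread widely. Of 27 listed and measured, 9 (33.3%) lay between -1 and 0 in both replicates, where 20.9% of all measured genes lay. In both replicates 10 (37.0%) were above 0 and 16 (59.3%) below, against 22.8% and 69.7% of all measured genes, and 1 had opposite signs. The 6 covered over 50% or more (22.2%) were a share near the 19.2% of all measured genes. Of the 9 in the band, CNGA2, the main subunit of the transduction channel, was at -0.26 ± 0.06, STOML3 at -0.50 ± 0.06, and EMX2, a homeodomain factor, at -0.24 ± 0.03. LHX2, a homeodomain factor required for olfactory neurons, was at 1.00 ± 0.23, and CNGB1, a subunit of the olfactory transduction channel, at 0.92 ± 0.04. RTP1 and RTP2, which carry receptors to the cell surface, were at 1.11 ± 0.59 and 0.78 ± 0.02. GNAL, the olfactory G protein, was at 0.10 ± 0.15, within its own spread of 0. OMP, the marker protein of mature olfactory neurons, was at -1.54 ± 0.46 although it is another chromosome 11 gene. CNGA4, a channel subunit gene just past cluster 1 and another of the 9, was at -0.05 ± 0.04. The broadly used GNB1 and the demethylase gene KDM1A were at -2.54 ± 0.02 and -2.02 ± 0.08.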

How the data were processed

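MacroH2A1 ChIP-seq of IMR90 cells was analysed from 1 segmentation per ChIP replicate. The submitters' processing notes name CASAVA 1.7 and hg19; the sources used here do not give the aligner, the segmentation program or the scaling of ChIP to input. The authors' deposited log2 ratio of each segment was read as base 2, because 2 raised to it averaged 1.01 and 0.995 over assayed bases. The authors' deposited −log10 p was used only to call enriched segments (at least 2, with a log2 ratio above 0).

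Genes came from GENCODE release 44 mapped to GRCh37, the build of the files. Base-weighted means and exact intersections were computed in Python 3.11.15 with numpy 2.4.6 and pandas 2.3.3, and the interval sums were tested on simulated data. Depth is not given in the files. No test was run: the design has 1 group of 2 ChIP replicates. Genes with under 50% assayed bases were left out, which removed no member.

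The members and gene lists were chosen with earlier results of these data known. Named genes were the 5 highest and 5 lowest members, the 2 highest, 2 lowest, first and last of each cluster of at least 5, all of clusters of 1 or 2, the 3 with the largest replicate difference, and 7 receptors of known role. Others are named to mark edges of stretches and were chosen after their values were seen. Alternatives were other windows, thresholds, symbol patterns, joining distances, whole segments and each replicate alone.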

Additional observations from a re-analysis of the deposited data

How the results depend on the processing

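The counts of members above 0 in both replicates and of members covered stayed within 1.5 times of the reported 19 and 18 with a 5-kb window at the start site, with 10 kb added on either side, with whole segments, with 2-letter subfamilies added and with each replicate alone. With a log2 ratio over 0.5, 2 members were above it in both replicates and 2 were covered, and the mean covered share was 1.49%. It was 7.94% with a −log10 p of at least 5. With enrichment in either replicate 30 members were covered and the mean share was 19.2%. The same shares over all measured genes were not computed at these changed thresholds, so no comparison with other genes is drawn from them. With single replicates the members' median ran from -0.54 to -0.44, the mean covered share from 13.5% to 17.2%, and the number of clusters with a median above 0 from 1 to 2 (2 by the mean of both replicates, clusters 3 and 8), since cluster 3 is above 0 in replicate 1 alone. In settings chosen after seeing the data, leaving out the 42 members of cluster 7 gave a median of -0.34, a mean share of 15.5% and 80 members between -1 and 0, and counting each pair of values once gave a median of -0.31. Joining neighbours within 100 kb gave 17 clusters and within 1 Mb 7. Among cluster medians and named genes, sign changes were seen only where the replicates themselves differ in sign. Segments hold 1 value each, so variation inside them is not seen.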
